A study of Mus musculus with 86 samples.

Results

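The comparison described here is the soma of CAD cells that carry a Q331K TDP-43 transgene against the soma of CAD cells that carry a wild-type (WT) TDP-43 transgene. Its members were the RNA-seq libraries that the sample labels assign to the soma compartment of either genotype. There were 3 Q331K and 3 WT libraries, 6 of the 86 samples in the series. CAD cells are a mouse neuronal line of catecholaminergic origin that extends processes once serum is withdrawn. They were cultured on porous membranes, and the material scraped from the upper face was the soma fraction, from which polyadenylated RNA was sequenced.

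According to the methods, each line received an HA-tagged TDP-43 transgene by Cre-mediated exchange at a single loxP-flanked cassette, under a doxycycline-inducible promoter and with a synthetic 3′ UTR in place of the one that belongs to Tardbp. The endogenous Tardbp alleles were present in both lines, both were kept as puromycin-resistant populations, and doxycycline was given to both groups. The labels call both genotypes overexpression and give doxycycline at 2 µg/mL for 48 h for every sample as the step that removes TDP-43, whereas the methods give another dose and a longer time for these lines, so the exposure is not certain. The paper reports from immunoblots that induction lowered expression from the endogenous alleles. It gives total TDP-43 protein as about equal with and without induction. The sources used here do not say whether the transgene has the mouse or the human coding sequence. Each genotype is 1 line, so an effect of the mutation and a difference between the lines cannot be told apart. Neurites of the same lines, with 3 libraries per genotype, were set beside the soma. The soma of CAD cells with an inducible TDP-43 knockout was the other comparison, with 3 libraries labelled as knockout and 3 as wild type. In that line, which was grown from single sorted cells, the endogenous alleles were cut with Cas9 and a doxycycline-repressed TDP-43 transgene replaced them. Doxycycline was given to the knockout arm only, so loss of TDP-43 and doxycycline cannot be told apart there. Nothing in the labels says that replicates were separate cultures, so p-values measure the spread between these samples, which may be technical.

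TDP-43 is an RNA-binding protein of the hnRNP family that binds GU-rich RNA, represses cryptic exons and limits its own mRNA through its 3′ UTR. It leaves the nucleus and aggregates in neurons of most people with amyotrophic lateral sclerosis (ALS). Q331K is an ALS-associated substitution in the glycine-rich C-terminal domain, which contributes to protein interactions and phase separation and lies outside the RNA recognition motifs.

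The soma libraries held between 9783050 and 15870647 estimated counts. Markers of the line were present. The summed level of 18 catecholaminergic genes was 983, 1068 and 943 TPM (transcript abundance scaled to library size) in the WT libraries and 966, 1016 and 1010 TPM in the Q331K libraries. Hand2, a transcription factor of sympathetic neurons, was the most abundant at a mean of 471 TPM, and Slc6a2 and Slc6a3 had 0 counts in all 6 libraries. Dbh and Th, enzymes of catecholamine synthesis, had means of 10.2 and 4.97 TPM. The 22 pan-neuronal genes summed to between 3163 and 3513 TPM, led by Prph at 806 TPM, and Dcx had 0 counts. Markers of other cell types had smaller sums. Of 7 astrocyte genes the sum was 1.94 to 3.88 TPM, led by Gfap at 1.52 TPM. Of 8 microglia and blood cell genes it was 0.235 to 1.63 TPM, led by Cd68, with Cx3cr1, P2ry12 and Tyrobp at 0 counts. The 8 oligodendrocyte and Schwann genes summed to 12.1 to 16.6 TPM, mostly Cnp (mean 11.3 TPM), with Olig1 and Olig2 at 0 counts, and the 8 fibroblast and mural genes to 24.0 to 30.6 TPM, mostly Dcn (mean 21.6 TPM), with Acta2 and Col3a1 at 0 counts. Cnp and Dcn were thus above Dbh and Th.

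The libraries did not separate cleanly by genotype. Pearson's r of log2 CPM (counts scaled to library size) across genes was 0.979 to 0.984 between libraries of 1 genotype and 0.979 to 0.986 between genotypes, and WT replicate 1 was closest to Q331K replicate 3. On the 500 most variable genes, the first principal component (34.0% of the variance) had both genotypes on both sides, and the second (18.9%) had the WT libraries at -1.29, -16.0 and -11.5 and the Q331K libraries at 17.5, 5.35 and 5.84. WT replicate 3 stood apart in genes of the cell cycle. The median of 24 genes of G2 and M phase in that library was 0.42 log2 units above the genes' means over the 6 libraries, and the other 5 libraries lay between -0.23 and 0.10. Several results below are also given without this library.

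Tardbp, which encodes TDP-43 (chromosome 4, 148612382 to 148627019, GRCm38), was at similar levels in both groups. It had 974, 951 and 863 CPM in the WT soma and 899.9, 872 and 969.6 CPM in the Q331K soma. The groups overlapped. The log2 fold change (Q331K minus WT, here and throughout) was -0.024, with a 95% interval of -0.19 to 0.14, and its sign turned with length-scaled counts (0.069), with TPM (0.011) and without WT replicate 1 (0.011) or Q331K replicate 2 (0.0094). Summed over 30 transcripts, the Tardbp level was 1466, 1529 and 1260 TPM in WT and 1377, 1453 and 1456 TPM in Q331K. The most abundant of these transcripts took between 38.3% and 42.4% of the total in each library. The estimated counts do not separate transgene from endogenous transcripts, and reads of a transgene with the human sequence may not be counted under Tardbp, so these values may lack some or all of the transgene. In the knockout line the same gene went from 646, 710.4 and 638 CPM in wild-type soma to 114, 112 and 122.8 CPM in knockout soma.

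No gene passed the threshold in the soma contrast. Of 13594 genes tested with edgeR's quasi-likelihood test, 0 were higher and 0 lower in Q331K at a false discovery rate (FDR) of 0.01 (0% of genes in either direction), and the lowest adjusted p was 0.19. At an unadjusted p under 0.05 there were 1166 genes (8.58%), 605 higher (4.45%) and 561 lower (4.13%), and without Q331K replicate 1 there were 334 and 276. DESeq2 had 916 genes at an unadjusted p under 0.05 and called 25 genes at the same FDR (0.184%), 11 higher and 14 lower. The groups did not overlap in 1922 genes (14.1%), 956 higher (7.03%) and 966 lower (7.11%).

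The data bound the size of most changes. The 95% interval of the fold change lay within 2-fold either way for 11890 genes (87.5%) and within 1.5-fold for 10013 (73.7%). Among the 9478 genes with a mean of at least 10 CPM, 96.1% had an interval within 1.5-fold. The median absolute log2 fold change was 0.10. An estimate beyond 2-fold was seen for 131 genes, 91 of which had a mean under 5 CPM in both groups.

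The genes nearest to the threshold were looked at one by one. They are the 10 protein-coding genes with the lowest p in each direction among those with at least 1 CPM and no overlap between the groups, so they were chosen after their values were seen, and the absence of overlap follows from that choice. All adjusted p-values from edgeR in this group were between 0.19 and 0.24. All 20 passed FDR 0.01 when genes with low counts were kept in the fit, 12 passed in DESeq2 and 9 with the replicate number as a block. None passed under the other alternatives, which were upper-quartile scaling, a stricter filter, length-scaled counts, all 12 transgene libraries and leaving out any 1 library.

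**Figure D1:**
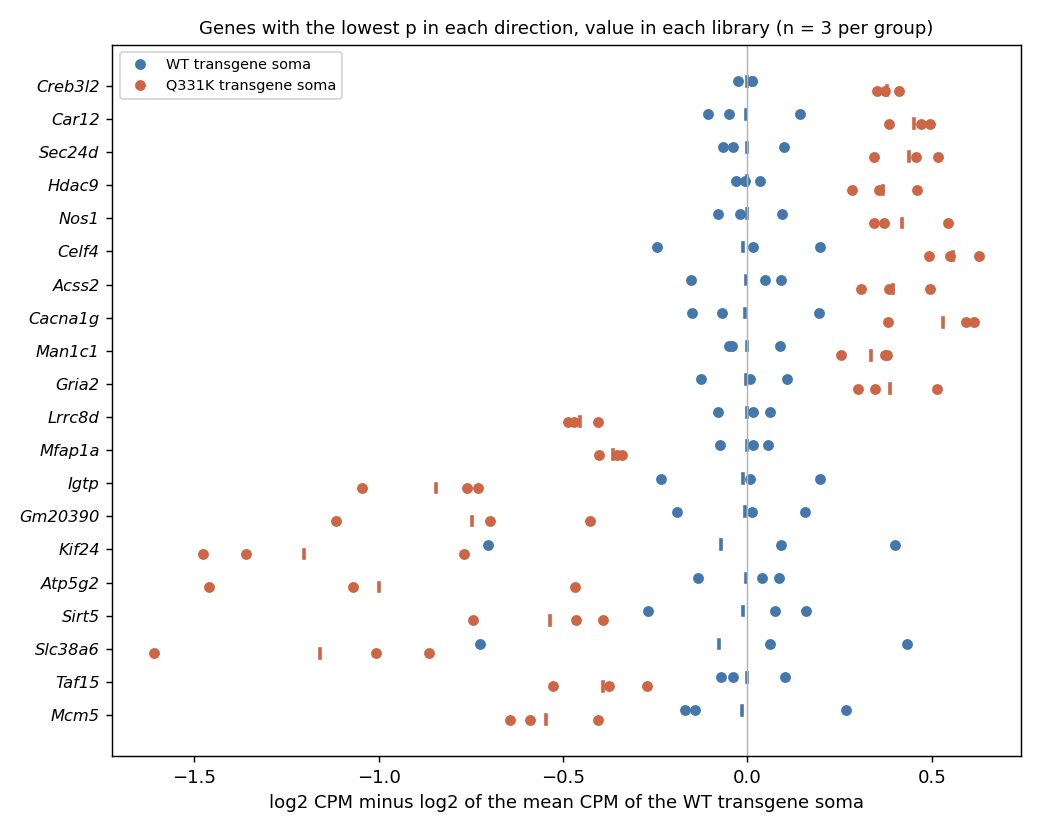
Level of the 20 protein-coding genes with the lowest p in the soma contrast, as log2 CPM minus log2 of the WT mean (x axis), with 1 point per library (n = 3 per group) and a bar at each group's mean. The higher genes are shifted by 0.34 to 0.55 in log2 fold change. Most have little spread within a group, though Celf4 ran from 26.6 to 36.1 CPM in WT. Kif24 and Slc38a6 are spread widely within both groups.

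On the higher side, Creb3l2, a membrane-bound transcription factor of the endoplasmic reticulum (ER) that promotes secretory cargo export (chromosome 6, 37327255 to 37442146), had 138, 138 and 135 CPM in WT and 182, 177 and 174 CPM in Q331K. Its log2 fold change was 0.38 (SE 0.060, adjusted p = 0.19 in edgeR and 0.000318 in DESeq2, and between 0.000131 and 0.743 over all alternatives). Sec24d, a coat subunit of the COPII vesicles that leave the ER (chromosome 3, 123267455 to 123365641), had 53.9, 52.8 and 59.3 CPM in WT and 70.2, 79.2 and 75.9 CPM in Q331K. For both genes the WT libraries lay close together and all 3 Q331K libraries lay above them. Nos1, the neuronal nitric oxide synthase (chromosome 5, 117781032 to 117958840), was the most abundant of the group, with 1012, 1055 and 1142 CPM in WT and 1358, 1383 and 1559 CPM in Q331K. Its log2 fold change was 0.42 (SE 0.080, adjusted p = 0.24 in edgeR and 0.000133 in DESeq2, and between 1.17e-05 and 0.743 over all alternatives). Car12, a membrane carbonic anhydrase, had 82.8, 94.7 and 79.7 CPM in WT and 121, 112 and 119 CPM in Q331K. Hdac9, a class IIa histone deacetylase, had 113, 115 and 118 CPM in WT and 147, 140.1 and 158 CPM in Q331K. In each of these genes the lowest Q331K library was above the highest WT library.

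Celf4, an RNA-binding protein of neurons, was at 31.8, 26.6 and 36.1 CPM in WT and 48.7, 44.3 and 46.1 CPM in Q331K, a log2 fold change of 0.55 (SE 0.11). Gria2, the AMPA receptor subunit whose edited form blocks calcium entry, was at 125, 106 and 117 CPM in WT and 166, 147 and 143 CPM in Q331K. Cacna1g, a T-type calcium channel, was at 20.8, 26.3 and 21.9 CPM in WT and 35.3, 34.7 and 29.97 CPM in Q331K. These 3 genes had log2 fold changes of 0.39 to 0.55. The others of the group were Acss2, which makes acetyl-CoA from acetate, at 0.40, and Man1c1, a mannosidase of the Golgi, at 0.34. DESeq2 called each of the 10 genes but Cacna1g and Man1c1. It also called Ngfr, the p75 neurotrophin receptor, which had 157, 161 and 134 CPM in WT and 206, 194 and 185 CPM in Q331K.

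Among genes with lower values, Lrrc8d, a subunit of volume-regulated anion channels (chromosome 5, 105699969 to 105832436), had 69.3, 62.8 and 67.2 CPM in WT and 50.2, 47.5 and 48.0 CPM in Q331K. Its log2 fold change was -0.46 (SE 0.072, adjusted p = 0.19 in edgeR and 0.0017 in DESeq2, and between 0.000145 and 0.743 over all alternatives). Taf15, an RNA-binding protein, had 63.8, 62.4 and 70.3 CPM in WT and 45.4, 54.3 and 50.5 CPM in Q331K, a log2 fold change of -0.38 (-0.21 with length-scaled counts and -0.25 in TPM). Mcm5, a subunit of the replicative helicase, had 36.2, 35.6 and 48.1 CPM in WT and 26.5, 30.2 and 25.6 CPM in Q331K, with WT replicate 3 the highest. The groups did not overlap in any of the 3 in CPM. Igtp, an interferon-inducible GTPase, was at 10.8, 9.17 and 12.4 CPM in WT and 6.51, 6.37 and 5.23 CPM in Q331K. Mfap1a, a spliceosome component, had a log2 fold change of -0.36.

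Other genes on the lower side varied widely within a group. Slc38a6, an amino acid transporter, had 239, 138 and 309 CPM in WT and 114, 74.9 and 126 CPM in Q331K, and Kif24, a kinesin, had 62.8, 36.2 and 77.8 CPM in WT and 23.0, 21.2 and 34.6 CPM in Q331K. Both were lowest in replicate 2 of either genotype, and the gap between the groups was smaller than the range of the WT libraries. Sirt5, a mitochondrial deacylase, was also lowest in replicate 2 of either genotype, with 293, 218 and 277 CPM in WT and 190.4, 157 and 200.3 CPM in Q331K. Gm20390 overlaps Nme1 and Nme2 on the same strand, so reads could be split between these genes and its value (log2 fold change -0.71) is uncertain. Atp5g2, a subunit of ATP synthase, had a log2 fold change of -0.92. DESeq2 called Lrrc8d, Gm20390, Sirt5 and Atp5g2 of these 10.

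The direction of most of these genes was shared by the neurites of the same lines. Of the 20 genes, 19 had the same sign in neurites, and Atp5g2 did not (0.40). The share with the same sign was 77.7% among genes at an unadjusted p under 0.05 in soma and 59.1% among all 13594. In neurites the log2 fold change was 0.52 for Nos1, 0.53 for Sec24d, 0.41 for Hdac9 and 0.38 for Celf4. Other genes had a smaller value in neurites than in soma. Creb3l2 was 0.12 in neurites and 0.38 in soma, Man1c1 0.065 and 0.34, and Cacna1g 0.17 and 0.53. On the lower side, Mfap1a was -0.15 and -0.36, and Kif24 -0.45 and -1.17. By the methods, soma and neurites come from the same membranes, so a difference between lines or cultures would appear in both. The test of the soma effect against the neurite effect called 0 of 13940 genes in edgeR (0%) and 0 in DESeq2. It treated all libraries as independent and did not pair the fractions of a culture. At an unadjusted p under 0.05 edgeR had 605 genes (4.34%) and DESeq2 514, and the lowest adjusted p in edgeR was 0.46. No gene was thus shown to respond differently in the soma, and a p that misses the threshold does not show that the responses were equal.

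A set of 17 mRNAs was drawn up here from the study's work on TDP-43 and localization, and not all of them count there as targets of TDP-43. Most were picked with knockout libraries of the series in view, so their knockout values below are not independent evidence. In the Q331K soma 0 of the 17 passed the test, 8 had positive and 9 negative estimates, and their median log2 fold change was -0.039 beside -0.0035 for all tested genes. That median was -0.0063 without Q331K replicate 1, -0.0093 without Q331K replicate 3, -0.019 without WT replicate 2, -0.021 without WT replicate 3 and -0.00058 with length-scaled counts. Groups did not overlap for 1 of them above and 2 below, beside 7.03% and 7.11% of all genes. At an unadjusted p under 0.05 there were 2 higher and 3 lower (29.4% of the 17, beside 8.58% of all genes), and that share was between 11.8% and 35.3% over the alternatives. The counts were 1 and 1 without Q331K replicate 1, 1 and 3 without Q331K replicate 2 or WT replicate 3, 3 and 1 without Q331K replicate 3, and 2 and 1 without WT replicate 1.

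Diras1, a small GTPase (chromosome 10, 81019589 to 81025662), had 13.8, 12.2 and 11.2 CPM in WT and 10.6, 10.4 and 10.04 CPM in Q331K. Ksr2, a scaffold of the RAF and MEK kinases (chromosome 5, 117414000 to 117775003), had 21.0, 25.4 and 26.4 CPM in WT and 26.1, 27.4 and 26.4 CPM in Q331K. Wasf3, a regulator of actin branching (chromosome 5, 146384985 to 146473615), had 33.1, 29.3 and 34.6 CPM in WT and 26.4, 26.8 and 26.7 CPM in Q331K. Diras1 and Wasf3 were below the WT range in all 3 Q331K libraries, and Ksr2 overlapped. Their log2 fold changes were -0.26 (95% interval -0.54 to 0.023), 0.14 (-0.087 to 0.36) and -0.28 (-0.47 to -0.086). That of Ksr2 was 0.044 without WT replicate 1, 0.21 without WT replicate 3 and 0.043 in TPM. In knockout soma Diras1 did not pass the test (log2 fold change 0.22, adjusted p = 0.11 in edgeR), Ksr2 fell by 0.48 and Wasf3 rose by 0.61.

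The 3′ UTRs of these genes hold the GU-rich letters that TDP-43 binds, and the 30 bases richest in them are shown for reference. Capitals mark every match to GTGTG, to TGTGT or to GTATG, which overlap one another and were searched on the transcribed strand only. The windows lie in GRCm38 at chr10:81020258-81020287 (minus strand), chr5:117766502-117766531 (plus strand) and chr5:146471820-146471849 (plus strand).
Diras1: GTGTGTGTGTGTGaagggggagaGTGTGTG
Ksr2: GTGTGTGTGTGTGTGTaactgtttacaatg
Wasf3: TGTGTGTGgacgcctgtccgcttggccagc
The Diras1 and Ksr2 windows have 12 matches each, and 6.12% of the 12234 tested genes with a 3′ UTR have a window at least as rich. The Wasf3 window has 4 matches, and 28.7% have one as rich. At least 1 match was present in 88.6% of these UTRs.

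Of the other mRNAs, Cacna1b, an N-type calcium channel, had 50.8, 49.2 and 55.1 CPM in WT and 69.3, 65.2 and 56.5 CPM in Q331K, where all Q331K values lay above WT (log2 fold change 0.30, adjusted p = 0.40 in edgeR), and in TPM the groups overlapped (0.17). Spock2, a secreted proteoglycan, had 190, 172 and 167 CPM in WT and 163, 170.1 and 154 CPM in Q331K, and Lrrc47 had 39.6, 37.2 and 47.6 CPM in WT and 32.2, 39.0 and 34.1 CPM in Q331K. The groups overlapped for both in CPM, and in TPM the Q331K values lay below WT for both. For 15 of the 17 the interval lay within 1.5-fold either way. The exceptions were Lars2 and Zfp839, which was low at 2.41 to 4.24 CPM. Lars2, the mitochondrial leucyl-tRNA synthetase, had the largest estimate (0.58, SE 0.22, and 0.34 without WT replicate 3), with 271, 285 and 150 CPM in WT and 387, 417 and 252 CPM in Q331K. It passed FDR 0.01 with the replicate number as a block (adjusted p = 0.00059 in edgeR) and without the filter on low counts (1.13e-11), and its adjusted p was 0.51 in the fit used throughout. Gm42418, a gene that overlaps ribosomal RNA sequence, took 0.248%, 0.177% and 0.117% of counts in the WT libraries and 0.371%, 0.622% and 0.292% in the Q331K libraries, and like Lars2 it was lowest in WT replicate 3 and highest in Q331K replicate 2. Gm42418 also passed with the block (adjusted p = 0.00311 in edgeR). A link between them was not tested.

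**Figure D2:**
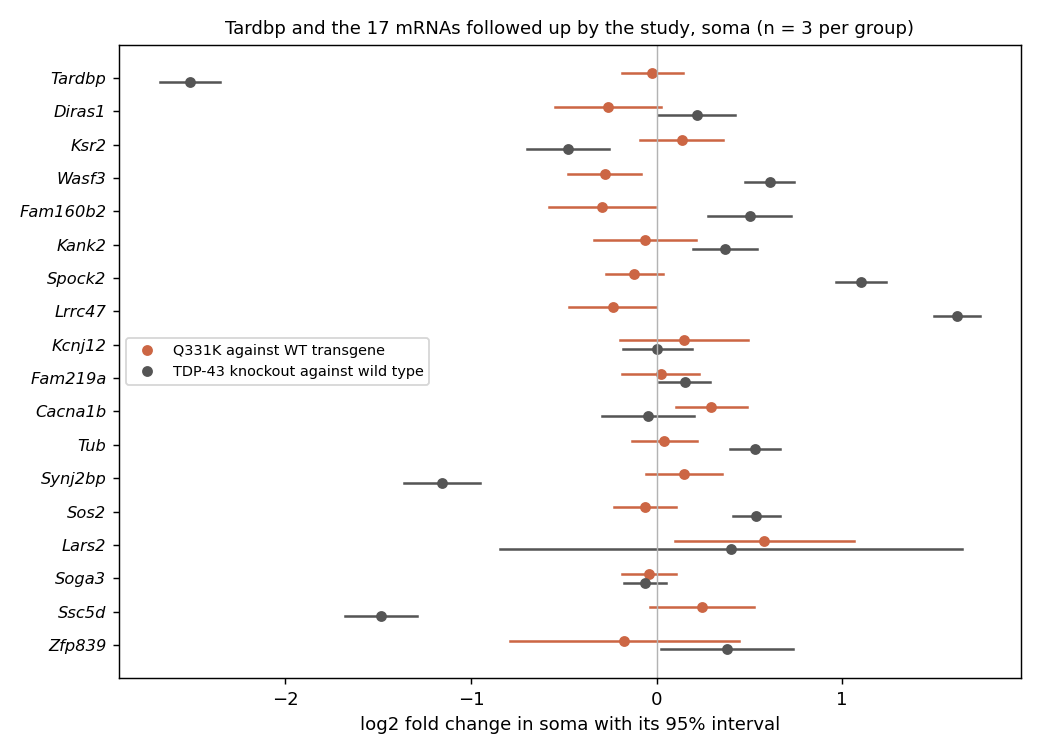
Log2 fold change in soma with its 95% interval (x axis) for Tardbp and the 17 mRNAs drawn from the study's work, for Q331K against WT transgene and for TDP-43 knockout against wild type (n = 3 per group). The Q331K estimates lie between -0.29 and 0.58, while in knockout soma Lrrc47 lies at 1.62, Ssc5d at -1.49 and Tardbp at -2.52.

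Beside the knockout, the Q331K contrast was small. Soma libraries of the knockout line were deeper, at 25009904 to 30026966 estimated counts beside 9783050 to 15870647 in the transgene lines. More genes were tested there, 17010 beside 13594, so counts past the test are not set side by side at equal depth. In knockout soma 10 of the 17 mRNAs passed the test, 7 higher and 3 lower, where 21.1% of all 17010 genes passed (1793 higher, 10.5%, and 1803 lower, 10.6%). For 9 of the 10, the estimate in Q331K had the opposite sign, and Tub did not. Among all genes, 899 of the 1709 that rose in the knockout and 1146 of the 1776 that fell had the opposite sign too. The sign of Tub turned without Q331K replicate 3 (-0.00031) or WT replicate 3 (-0.021), and that of Kank2, 1 of the 9, without Q331K replicate 3 (0.0099) or WT replicate 2 (0.055). The difference between the Q331K and the knockout effect was itself past FDR 0.01 for 9 of the 17 (13.5% of 16420 genes were). Lrrc47 rose by 1.62 in knockout soma and was -0.24 in Q331K (difference -1.86, adjusted p = 9.78e-08 in edgeR), or -0.12 without WT replicate 3. Spock2 rose by 1.10 and was -0.12 in Q331K (difference -1.23, adjusted p = 2.07e-07), or -0.064 without WT replicate 1 and -0.076 without Q331K replicate 3. Synj2bp, an outer mitochondrial membrane protein, fell by 1.16 and was 0.15 in Q331K (0.098 without WT replicate 1), and Ssc5d fell by 1.49 and was 0.25 in Q331K (0.096 without WT replicate 3).

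Genes that changed in knockout soma were set beside Q331K in the same way. Of the 13483 genes tested in both contrasts, 6594 were above 0 in Q331K, and 603 were higher and 548 lower at an unadjusted p under 0.05. Of 1709 genes that rose in the knockout, the median log2 fold change was 0.60 in the knockout and -0.013 in Q331K, and 810 were above 0 in Q331K, with 119 higher and 113 lower at an unadjusted p under 0.05. Of 1776 that fell, the medians were -0.54 and 0.048, and 1146 were above 0 in Q331K, with 182 higher and 26 lower. Among the 414 genes that rose more than 2-fold in the knockout, the median in Q331K was -0.056, and among the 286 that fell more than 2-fold it was 0.084. Across all 13483, Spearman's rho between the log2 fold changes was -0.12. This is a description across genes, which are not independent replicates, and the contrasts share no library.

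Individual genes went either way. Of the 20 genes with the lowest p, 7 also passed in knockout soma, 3 in the same direction and 4 in the opposite one, beside 1709 genes that rose and 1776 that fell of the 13483 tested in both. Nos1 was 1.69 in the knockout and 0.42 in Q331K, and Celf4 was 1.36 and 0.55, so both were higher in both contrasts with a larger value in the knockout (adjusted p of the difference in edgeR 5.74e-07 and 0.000267). Sec24d was 0.57 and 0.44, a difference of -0.13 that did not pass (adjusted p = 0.37). Hdac9 (-0.99 in the knockout), Acss2 (-0.92), Car12 (-0.71) and Mcm5 (1.65) had the opposite sign in Q331K, each with a difference past FDR 0.01. The 20 genes were chosen on the Q331K libraries that enter these differences, so the tests are not independent of the choice.

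Genes were then grouped by function. No list had a member past FDR 0.01 in edgeR. Of 806 list genes, DESeq2 called 2 higher and 1 lower, the replicate block 4 and 1, and the fit without a filter on low counts 21 and 13. Lists below without an unadjusted count had at most 3 such genes in either direction. The unadjusted counts are read against 4.45% of all genes higher and 4.13% lower. Members named from these lists were chosen after their values were seen. The choice of CPM or TPM matters for some genes given in CPM. Taf15, Pcna, Eno1, Snap25 and Isl1 do not overlap between the groups in CPM and do in TPM, and Bnip3 and Hsp90aa1 overlap in CPM and do not in TPM.

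**Figure D3:**
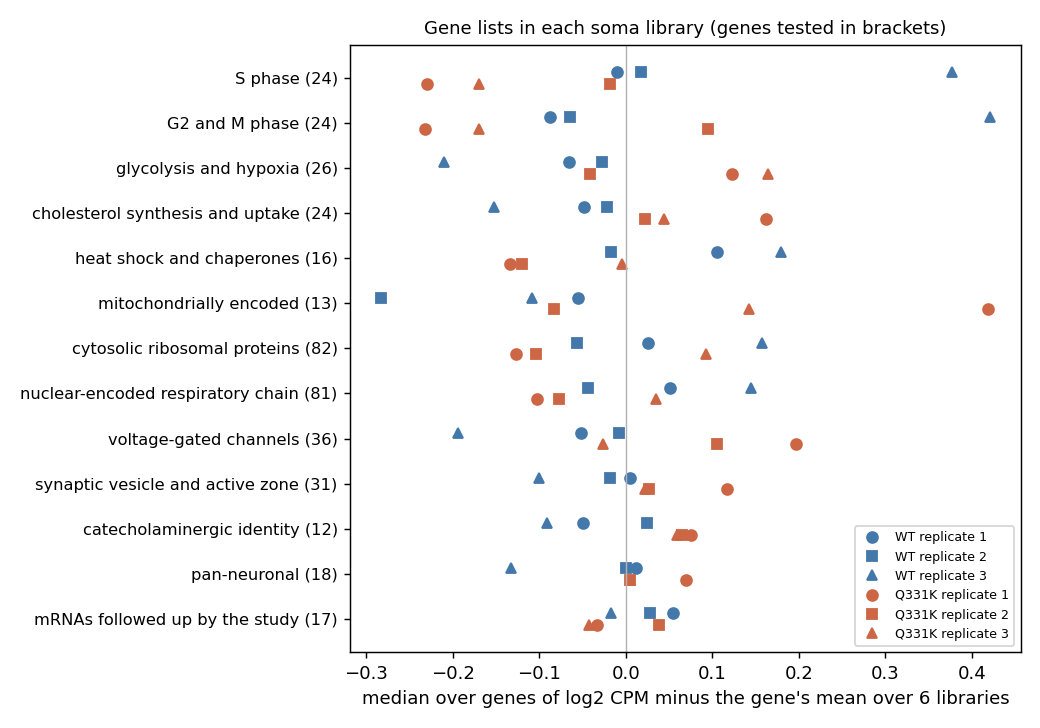
Median over the tested genes of a list (y axis) of log2 CPM minus each gene's mean over the 6 libraries (x axis), with 1 point per soma library and a symbol per replicate number. The S phase and G2 and M phase medians of WT replicate 3 lie at 0.38 and 0.42, far above the other libraries.

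Estimates for genes of DNA replication were negative in the Q331K soma. All 24 S phase genes had negative estimates, 10 at an unadjusted p under 0.05, with a median of -0.26. Rrm2, the regulatory subunit of ribonucleotide reductase, had 28.5, 27.5 and 39.2 CPM in WT and 18.7, 24.1 and 19.8 CPM in Q331K. Pcna, the replication clamp, had 82.7, 90.7 and 108 CPM in WT and 67.6, 80.6 and 74.7 CPM in Q331K. Neither gene overlapped between the groups in CPM, and WT replicate 3 was the highest library for both. Of 24 genes of G2 and M phase, 23 had negative estimates, 3 at an unadjusted p under 0.05, with a median of -0.21. Mki67, a marker of cycling cells, had 227, 255 and 344 CPM in WT and 206, 262 and 191 CPM in Q331K, and the groups overlapped. Without WT replicate 3, 18 S phase genes and 13 genes of G2 and M phase had negative estimates. The S phase median was then -0.11 with 6 of 24 at an unadjusted p under 0.05, and the G2 and M phase median was -0.038 with 0 of 24. Those counts were also 6 and 0 without Q331K replicate 1 or Q331K replicate 3, and 14 and 10 without Q331K replicate 2, where the G2 and M phase median was -0.32. Without WT replicate 1 and without WT replicate 2 the G2 and M phase count was 7 and 8. In knockout soma these lists moved up. There 18 S phase genes rose and 0 fell (median 0.75), and all 24 genes of G2 and M phase rose (median 1.82). Of all 17010 genes tested there, 10.5% rose and 10.6% fell. The difference between the Q331K and knockout effects passed the test for 20 of the S phase genes and 24 of the G2 and M phase genes, beside 2199 of 13594 genes in all. In bulk RNA, fewer cells in cycle and less of these RNAs per cell cannot be told apart.

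Estimates for genes of glycolysis and the response to low oxygen were mostly positive, though the list medians of the libraries overlapped between the groups. Of 26 tested, 25 had positive estimates and 12 were higher at an unadjusted p under 0.05, with a median of 0.18. Slc16a3, a lactate exporter, had 260.3, 286 and 217 CPM in WT and 365, 318 and 341 CPM in Q331K, with no overlap (log2 fold change 0.42, adjusted p = 0.24 in edgeR), and DESeq2 called it. Eno1, an enolase, had 385, 426 and 373 CPM in WT and 495, 437 and 494 CPM in Q331K. Bnip3, which acts in removal of mitochondria, had 144, 146 and 135 CPM in WT and 203, 146 and 222 CPM in Q331K. Q331K replicate 2 was the lowest Q331K library for all 3 genes and lay within the WT range for Bnip3. The list's median was between 0.14 and 0.27 with any 1 library left out, with 5 to 17 genes at an unadjusted p under 0.05 (5 without Q331K replicate 3, 6 without Q331K replicate 1 or WT replicate 3). WT replicate 3 was the lowest library for this list, and without it the median was 0.15. In knockout soma 15 of 26 fell and 1 rose (median -0.32), beside 10.6% and 10.5% of all 17010 genes. Of 26 differences 14 passed, beside 2199 of 13594 genes in all.

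Of 24 genes of cholesterol synthesis and uptake, 22 had positive estimates and 7 were higher at an unadjusted p under 0.05, with a median of 0.15. Nsdhl, a sterol dehydrogenase, had 81.1, 80.4 and 77.1 CPM in WT and 98.6, 96.6 and 94.4 CPM in Q331K. Dhcr7, which makes cholesterol in the last step, had 250.2, 239 and 205 CPM in WT and 304, 274 and 261 CPM in Q331K. Neither overlapped between the groups, and their log2 fold changes were 0.28 and 0.27. Without Q331K replicate 1 the list's median was 0.10 with 3 genes at an unadjusted p under 0.05, and without Q331K replicate 2 there were 11. WT replicate 3 was the lowest library for this list, and without it the median was 0.12 with 5 genes. In knockout soma 11 of the 24 fell and 1 rose (median -0.27), beside 10.6% and 10.5% of all 17010 genes. Differences passed for 15 of them, beside 2199 of 13594 genes in all.

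Estimates for chaperones were mostly negative, though the list medians of the libraries overlapped between the groups. Of 16 heat shock and chaperone genes, 15 had negative estimates and 6 were lower at an unadjusted p under 0.05, with a median of -0.18. Hsph1, a nucleotide exchange factor of HSP70, had 433, 386 and 454 CPM in WT and 347, 346 and 356 CPM in Q331K, with no overlap, and Hsp90aa1 had 808, 722 and 855 CPM in WT and 634, 656 and 732 CPM in Q331K, with overlap. Without WT replicate 3 the median was -0.11 with 3 genes at an unadjusted p under 0.05. Leaving out another library gave 3 genes without Q331K replicate 1, 4 without Q331K replicate 2 or WT replicate 1, and 9 without Q331K replicate 3 or WT replicate 2. Medians of other stress programmes were smaller in size than that of the chaperones, beside -0.0035 for all tested genes. The median was -0.0087 for 24 genes of the integrated stress response, -0.053 for 19 of the ER unfolded protein response and -0.041 for 21 p53 targets. The signs of the first and the last turned. The median of the integrated stress response was -0.027, -0.057 and 0.015 without Q331K replicates 1, 2 and 3, and -0.044, -0.038 and 0.0017 without WT replicates 1, 2 and 3. In the same order that of the p53 targets was -0.026, -0.0071 and 0.0074, and 0.00024, 0.0030 and 0.010. The ER median was -0.015 without Q331K replicate 2, -0.022 without Q331K replicate 3, -0.025 without WT replicate 1 and -0.016 with length-scaled counts. Atf4, the central factor of the integrated stress response, had 246, 239 and 279.6 CPM in WT and 234, 235 and 257 CPM in Q331K. The interferon-stimulated list had a median of -0.14 over 17 genes, -0.23 without WT replicate 3 and -0.062 with length-scaled counts.

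Neuronal lists had small positive medians. The median was 0.17 for 36 voltage-gated channel genes (31 positive, 6 higher at an unadjusted p under 0.05), 0.15 for 50 clustered protocadherins (38 positive, 7 higher), 0.14 for 12 catecholaminergic genes (10 positive, 4 higher), 0.076 for 31 genes of synaptic vesicles and active zones (22 positive, 5 higher and 1 lower), 0.066 for 18 pan-neuronal genes (13 positive) and 0.056 for 47 axon guidance genes (30 positive, 5 higher). Snap25, a SNARE protein of the synapse, had 219, 236 and 221 CPM in WT and 275, 241 and 271 CPM in Q331K. Slc18a1, a vesicular monoamine transporter, had 18.5, 15.6 and 13.5 CPM in WT and 24.2, 19.7 and 18.9 CPM in Q331K, and Isl1, a transcription factor of sympathetic and motor neurons, had 67.7, 71.3 and 64.3 CPM in WT and 79.2, 75.4 and 77.2 CPM in Q331K. The groups did not overlap for these genes in CPM. In TPM, Isl1 had 64.2, 83.7 and 55.2 in WT and 63.2, 72.2 and 67.3 in Q331K, with means of 67.7 and 67.6, and Snap25 overlapped too. WT replicate 3, the library with the highest cell cycle genes, was the lowest library for each of these lists but the protocadherins. Without it the channel median was 0.11 with 2 genes higher at an unadjusted p under 0.05, and the catecholaminergic median was 0.11 with 1. Without Q331K replicate 1, 0 catecholaminergic and 2 channel genes were, and without WT replicate 2, 13 channel genes. The protocadherin median was 0.082 without Q331K replicate 1 (4 genes higher), 0.31 without Q331K replicate 3 and 0.25 without WT replicate 2. The count of axon guidance genes was 2 without Q331K replicate 1, 1 without WT replicate 3 and 8 without WT replicate 1 or 2, and that of synaptic genes was 8 without Q331K replicate 3 or without WT replicate 1 or 2. The axon guidance median was 0.015 without Q331K replicate 1, 0.14 without Q331K replicate 3, 0.10, 0.089 and 0.012 without WT replicates 1, 2 and 3, and 0.019 with length-scaled counts. The synaptic median was 0.046 without Q331K replicate 1, 0.16 without Q331K replicate 3 and 0.12 without WT replicate 1 or 2. With length-scaled counts the catecholaminergic median was 0.061. The pan-neuronal median was 0.023 without WT replicate 3, and 0.11 without Q331K replicate 2 and 0.10 without WT replicate 1. In knockout soma the medians were -0.28 for channels, -0.30 for protocadherins, -0.26 for axon guidance genes and -0.071 for pan-neuronal genes, and they were 0.12 for catecholaminergic and 0.033 for synaptic genes.

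Genes linked to ALS and frontotemporal dementia had estimates on both sides of 0. Of 34 tested, 20 had positive and 14 negative estimates, and the median was 0.011, which turned to -0.0080 without WT replicate 2 and was 0.022 without Q331K replicate 3. At an unadjusted p under 0.05, 2 were higher and 2 lower, and the lowest estimate was that of Taf15 (-0.38), described above. Unc13a, a vesicle-priming protein, had 73.8, 80.4 and 84.7 CPM in WT and 99.2, 105 and 94.1 CPM in Q331K (log2 fold change 0.32, adjusted p = 0.27 in edgeR), and rose by 1.71 in the knockout. Its TPM values lay closer, at 23.38, 22.88 and 23.32 in WT and 23.71, 33.96 and 23.73 in Q331K, apart from Q331K replicate 2. Nek1, a kinase of the DNA damage response, was 0.25 in Q331K and 0.91 in the knockout. Sod1, the first gene linked to ALS, had 294, 256 and 318 CPM in WT and 265, 262 and 289 CPM in Q331K, and C9orf72 had 39.3, 31.6 and 33.2 CPM in WT and 32.6, 31.6 and 36.3 CPM in Q331K. Both overlapped. Grn, which encodes the lysosomal protein progranulin, had a log2 fold change of 0.0028 (95% interval -0.25 to 0.25, and -0.10 to 0.12 with any 1 library left out), whereas it rose by 1.32 in knockout soma (adjusted p of the difference in edgeR 8.71e-06). Of 62 tested hnRNP and SR splicing factors, 20 had positive and 42 negative estimates, with a median of -0.041 that was 0.0067 without WT replicate 3 and -0.014 without Q331K replicate 1.

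Estimates for RNAs of the mitochondrial genome were mostly positive. Of 13 mitochondrially encoded genes, 12 had positive estimates and 6 were higher at an unadjusted p under 0.05, with a median of 0.33. They took 5.30%, 4.69% and 5.07% of counts in the WT libraries and 7.12%, 5.39% and 6.17% in the Q331K libraries. The shares did not overlap, and Q331K replicate 1 was the highest. Mitochondrial ribosomal RNAs took 0.1678%, 0.1885% and 0.1748% of counts in WT and 0.2371%, 0.223% and 0.2006% in Q331K, also without overlap. The share of Gm42418, given above beside Lars2, was likewise higher in every Q331K library than in any WT library. The list medians of the libraries did overlap, at -0.055, -0.28 and -0.11 in WT and 0.42, -0.083 and 0.14 in Q331K. mt-Nd5, a subunit of complex I, had a log2 fold change of 0.50 (SE 0.12) with no overlap, and 0.33 without Q331K replicate 1. With the replicate number as a block mt-Nd5, mt-Nd4 and mt-Co1 passed FDR 0.01 (adjusted p = 0.00311, 0.00464 and 0.00931 in edgeR). Of the 13 genes, 11 were higher at an unadjusted p under 0.05 without Q331K replicate 2, and 4 without Q331K replicate 1 (median 0.24, 1 lower) or WT replicate 2. In knockout soma the median was 0.32 with 0 of 13 past the test, and 0 of the 13 differences passed. Nuclear-encoded respiratory chain genes and cytosolic ribosomal protein genes had mostly negative estimates. Of 81 respiratory chain genes 70 had negative estimates and 10 were lower at an unadjusted p under 0.05, with a median of -0.096. Of 82 cytosolic ribosomal protein genes 69 had negative estimates and 10 were lower, with a median of -0.079. Negative ribosomal estimates numbered 42 without WT replicate 3 and 46 with length-scaled counts, and respiratory ones 53 and 56. Groups did not overlap for 1 ribosomal gene above and 1 below, beside 7.03% and 7.11% of all genes. For the respiratory list these were 0 and 10. The list medians of the libraries overlapped for both lists. Without WT replicate 3 the ribosomal median was -0.0053 with 2 genes lower, and the respiratory median was -0.054 with 2. The ribosomal median was -0.037, -0.044 and -0.14 without Q331K replicates 1, 2 and 3, and -0.13 without WT replicate 2. The ribosomal counts were 1, 4 and 31 without Q331K replicates 1, 2 and 3, and 1 and 21 without WT replicates 1 and 2. The respiratory counts were 4, 5 and 19, and 7 and 20. With length-scaled counts the ribosomal median was -0.0054 and the respiratory median -0.043.

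The remaining lists had medians of 0.13 (16 imprinted genes, 4 higher at an unadjusted p under 0.05), 0.10 (21 immediate early genes), 0.079 (49 extracellular matrix genes, 8 higher and 1 lower), 0.081 (14 neuropeptide and secretory granule genes), 0.063 (30 lysosome and autophagy genes) and 0.022 (11 Hox genes). In knockout soma the medians were 0.086, 0.37, -0.13, -0.038, -0.32 and 0.051. The Hox median was -0.0029, 0.059 and 0.15 without Q331K replicates 1, 2 and 3, and 0.033 and 0.088 without WT replicates 2 and 3. The neuropeptide median was 0.0099 without Q331K replicate 1, where 7 genes were positive and 7 negative, 0.15 without Q331K replicate 3 and 0.035 without WT replicate 3. The lysosome median was 0.032 without Q331K replicate 1, 0.12 without Q331K replicate 3 and 0.10 without WT replicate 1, and the matrix median was 0.13 without Q331K replicate 3 or WT replicate 1. The immediate early median was 0.035 with length-scaled counts, 0.022 without WT replicate 3 and 0.062 without Q331K replicate 1. The imprinted median was 0.070 without Q331K replicate 2 and 0.057 without WT replicate 1, and its count of 4 was 1 without Q331K replicate 3 or without WT replicate 1 or 2, and 2 without Q331K replicate 1. The matrix count of 8 was 5 without Q331K replicate 1 or 2. Among the few other cell type markers that passed the filter on low counts, 2 astrocyte, 3 oligodendrocyte and Schwann and 4 fibroblast and mural genes, 0 were at an unadjusted p under 0.05.

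Gene types were compared without a test. At an unadjusted p under 0.05 there were 5 higher and 26 lower of 183 processed pseudogenes (median -0.11), 8 and 26 of 300 lincRNAs (median -0.0084), 6 and 26 of 271 unconfirmed models (median 0.020), 3 and 6 of 159 antisense RNAs and 7 and 8 of 168 processed transcripts, beside 565 and 461 of 12304 protein-coding genes. Of the 14 genes that DESeq2 called lower, 10 were not protein-coding. Gm43590, an unconfirmed model on chromosome 3 (123471970 to 123472356), had 3.88, 3.48 and 3.85 CPM in WT and 0.944, 0.882 and 0.99 CPM in Q331K, a log2 fold change of -1.99 (SE 0.29, adjusted p = 0.19 in edgeR), and DESeq2 called it. Rpl36a-ps2, a copy of a ribosomal protein gene, had 63.6, 47.1 and 65.0 CPM in WT and 35.4, 32.6 and 43.1 CPM in Q331K. Reads of such copies can be shared with their parent genes, so their values are uncertain. Processed pseudogenes took 1.18%, 1.13% and 1.25% of counts in WT and 1.03%, 1.03% and 1.18% in Q331K, and the shares overlapped. Unconfirmed models took 1.63%, 1.38% and 1.45% in WT and 1.29%, 1.19% and 1.19% in Q331K, without overlap.

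The number of GU-rich matches in the 3′ UTR was set beside both contrasts. For 630 genes with more than 16 matches per kb, the median log2 fold change was -0.033 in the Q331K soma and 0.14 in knockout soma, and 41.1% and 64.8% of them were above 0. For 1384 genes with no match the medians were -0.012 and -0.018, with 47.5% and 48.0% above 0. Between these lay genes with above 0 to 4, above 4 to 8 and above 8 to 16 matches per kb. Their medians were 0.0052, -0.00079 and -0.015 in Q331K, with 51.5%, 49.7% and 44.9% above 0. In knockout soma their medians were -0.0272, -0.0212 and 0.0131. By genomic length, the 1670 genes that span over 100 kb had a median of 0.024 in Q331K with 57.4% above 0, and the 2800 genes up to 10 kb had -0.017 with 45.4%. These are descriptions across genes, without a test.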

How the data were processed

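Adapters were removed with cutadapt, and Salmon gave the 2 values deposited per transcript, estimated counts and TPM. The authors name mm10 and a Gencode version other than the annotation used here, and the transcripts listed differ between the transgene-line and knockout-line files (133618 and 135181). Estimated counts were summed to genes with GENCODE vM21 (GRCm38) and rounded, at most 0.129% of a soma library's counts having no gene there. Groups came from the labels. edgeR 4.0.16 in R 4.3.3 was run with TMM, filterByExpr, glmQLFit and glmQLFTest, Benjamini-Hochberg adjustment and an FDR of 0.01, on the 6 soma libraries, and on 12 libraries for each test of a difference. 95% intervals used the quasi-likelihood SE. DESeq2 was version 1.42.0. CPM used TMM factors. Python 3.11.15 was used for counting. Fits were tested on simulated data, from which no value is given here. The 3′ UTR was the longest annotated. Members and gene lists were chosen with earlier results of these data known. The rule for named genes took the 15 largest rises and falls past the FDR, up to 4 per list past it, Tardbp and the 17 mRNAs drawn from the study's work. With 0 genes past it, other genes were named after their values were seen. Alternatives were DESeq2, scaling, filters, length-scaled counts, FDR 0.05, a replicate block, all 12 transgene libraries, TPM and leaving out libraries.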

Additional observations from a re-analysis of the deposited data

How the results depend on the processing

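The 0 higher and 0 lower genes of the soma contrast stayed at 0 with length-scaled counts, upper-quartile scaling, a minimum of 10 counts per library, an FDR of 0.05 and all 12 transgene libraries. DESeq2 called 11 higher and 14 lower, and no filter on low counts gave 72 and 106. Of these 178 genes, 150 had also been tested in the fit used throughout, and 39 had 0 counts in at least 1 library. The cause was not tested. With any 1 library left out, 0 to 2 genes were higher and 0 to 2 lower, all of them pseudogenes or unconfirmed models, without Q331K replicate 2 or WT replicates 2 or 3. For soma against neurites, no filter gave 22 and 31, and leaving out a replicate number 0 to 1 in either direction. In the knockout, an FDR of 0.05 gave 2745 and 2820, and leaving out a library 1142 to 1586 higher and 1148 to 1550 lower. For Q331K against knockout (1173 higher and 1044 lower), length-scaled counts gave 747 and 669, an FDR of 0.05 1899 and 1823, and leaving out a replicate number 485 to 607 and 460 to 517. Whether replicate numbers mark a shared day is not known. The deviations of same-numbered soma libraries correlated at -0.063, 0.18 and 0.024. WT replicate 1 correlated best with Q331K replicate 3 (0.24), and WT replicate 2 with Q331K replicate 2 (0.18). With the replicate number as a block, 10 genes were higher and 34 lower in soma, 0 and 0 for soma against neurites, 2499 and 2607 in the knockout and 1453 and 1337 for Q331K against knockout.

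Some estimates near 0 changed sign. Tardbp was 0.069 with length-scaled counts and 0.011 with TPM, Fam219a was -0.00058 and -0.060, and Soga3 was 0.040 with length-scaled counts. With 1 library left out, Tardbp ranged from -0.070 to 0.011, Kank2 from -0.13 to 0.055, Fam219a from -0.029 to 0.11 and Tub from -0.021 to 0.079. The 20 genes with the lowest p kept their sign under every alternative in which they were fitted, and 20 passed without the filter on low counts, 12 in DESeq2 and 9 with the block. Across the named genes, 512 values kept direction and side of the threshold, 43 passed it and 15 changed sign. List medians moved by more than the spread between replicates in 16 cases and by less in 374.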
